A study of Homo sapiens with 28 samples.

Results

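The comparison covered here is that of androgen-deprived LNCaP cells given vehicle for 72 h with the same cells given vehicle for 24 h. Its members were the 7 vehicle libraries of the 28 in the series, chosen by their titles: 3 at 24 h and 4 at 72 h. LNCaP is an androgen-dependent human prostate cancer line of wild-type genotype. All 7 cultures were kept in charcoal-stripped serum, which holds little steroid hormone, for 72 h before treatment and then received 0.1% DMSO, so that total time in stripped serum was 96 h in one group and 144 h in the other. No culture in either group received the synthetic androgen R1881 or an inhibitor of the Mediator kinases CDK8 and CDK19. The 24 h libraries came from the first of 2 studies and the 72 h libraries from the second, so that treatment time, time in stripped serum and experiment cannot be told apart. The study's methods describe such libraries as biological replicates, and p-values measure the spread between them. The deposited tables held 10219140, 13695671 and 33809419 counts at 24 h and 10971458 to 12560764 at 72 h, and 24 h replicate 3 stood apart in depth.

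Prostate luminal cells depend on androgen for differentiation and division. When hormone is withdrawn, dividing prostate cancer cells slow in G1, and genes that serve DNA replication and mitosis are expressed less. Those genes are switched by 2 well-known systems: E2F factors, released from RB at the G1/S boundary, drive replication genes, and the MuvB complex with B-MYB and FOXM1, acting through the cell cycle homology region and neighboring CCAAT boxes, drives mitotic genes. LNCaP cells also clear androgens by glucuronidation through UGT2B enzymes, whose genes androgen represses.

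Across 15768 genes tested with edgeR, 974 (6.18%) passed an adjusted p (false discovery rate) under 0.01 and a fold change over 1.5. Of these, 649 (4.12%) were higher and 325 (2.06%) lower at 72 h, and these rules are what "called" means below. Few differences were large: 24 genes rose and 7 fell by more than 4-fold. The median log2 fold change over all genes was 0.00, but scaling holds it near 0 and rises offset falls. It therefore does not measure the size of the differences. Groups that did not overlap were common, in 45.9% of genes, since libraries of 1 group varied little (biological coefficient of variation 1.87%). With no fold limit and an adjusted p under 0.05, 23.4% of genes were higher and 23.7% lower. In bulk RNA, fewer cells of a kind and less RNA per cell cannot be told apart.

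The genes that were higher at 72 h were led by the cell cycle. In a list of 68 genes of mitosis and G2/M, 66 were called higher and none lower, with a median log2 fold change of 1.59. In a list of 56 genes of DNA replication and G1/S, 38 were called higher and none lower, with a median of 0.68. Together these lists held 104 of the 649 genes called higher (16.02%) and none of those called lower. The summed level of the mitosis list was 545 to 594 CPM (counts scaled to a common library size) in the 24 h libraries and 1247 to 1349 CPM in the 72 h libraries, and that of the replication list was 1018 to 1061 and 1522 to 1567 CPM.

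TOP2A, which encodes the topoisomerase that untangles replicated DNA, was at 9.54, 11.4 and 10.7 CPM at 24 h and at 50.4, 54.1, 54.2 and 46.3 CPM at 72 h (log2 fold change 2.26 ± 0.07 SE, adjusted p = 1.1e-23). ASPM, a spindle pole protein, was at 2.98, 2.77 and 2.02 CPM at 24 h and at 10.3, 12.5, 12.3 and 10.96 CPM at 72 h (2.27 ± 0.15, adjusted p = 9.0e-16). KIF14, a kinesin of the cytokinetic midbody, was at 1.79 to 2.19 CPM at 24 h and 8.14 to 8.98 CPM at 72 h (2.12 ± 0.16, adjusted p = 8.3e-15). All 4 libraries at 72 h stood above all 3 at 24 h for each of these genes. The rule that picked them required this, and groups did not overlap in 45.9% of all genes. The proliferation antigen gene MKI67 was at 8.75, 8.68 and 10.4 CPM at 24 h and at 31.9, 32.7, 35.3 and 36.2 CPM at 72 h, a log2 fold change of 1.82 ± 0.08 (adjusted p = 4.4e-20).

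**Figure D1:**
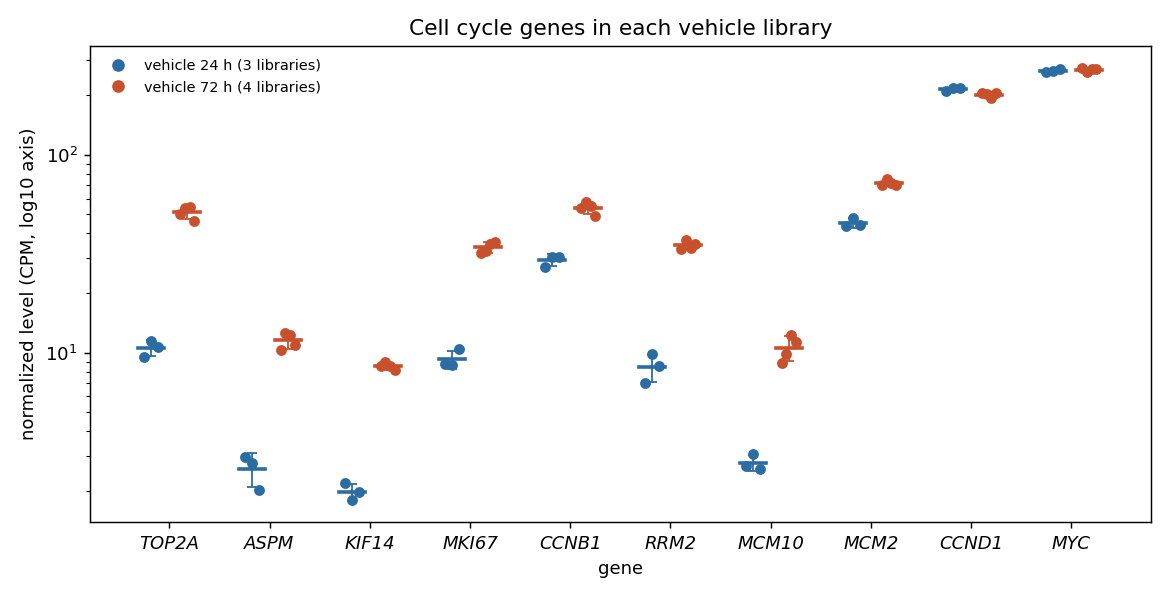
Normalized level (CPM, log10 axis) of 10 cell cycle genes in each vehicle library; points are libraries, horizontal bars group means and error bars SD. The groups are apart for the mitotic and replication genes on the left, while CCND1 (210 to 217 against 194 to 205 CPM) and MYC (263 to 271 against 262 to 276 CPM) on the right stay close.

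Within mitosis the rise reached each functional class examined. All 12 mitotic kinesins (median 1.70), all 13 kinetochore and centromere genes (median 1.68) and all 10 mitotic kinases and cyclins (median 1.53) were called higher, as were 5 of 6 genes of the spindle checkpoint (median 1.53). CDK1, the kinase that starts mitosis, went from 44.7 to 48.5 CPM at 24 h to 100 to 106 CPM at 72 h (1.18 ± 0.04, adjusted p = 1.9e-22). CCNB1, its cyclin B partner, went from 27.1 to 30.6 CPM to 49.1 to 57.5 CPM (0.85 ± 0.05, adjusted p = 5.0e-15). The factors that drive this program were higher as well, with log2 fold changes of 1.04 ± 0.06 for FOXM1 (adjusted p = 2.3e-17) and 1.30 ± 0.11 for MYBL2, which encodes B-MYB (adjusted p = 6.5e-12). The 2 members not called were BUB3, a checkpoint protein that also works outside mitosis, at 0.08, and INCENP of the chromosomal passenger complex, at 0.57; its partners AURKB and BIRC5 were called at 1.84 and 1.37.

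In the replication list, counts of calls by role depended on the fold limit, which is 0.585 on the log2 scale. RRM2, the regulated subunit of ribonucleotide reductase, was at 7.06, 9.80 and 8.52 CPM at 24 h and at 33.5, 36.9, 33.8 and 35.2 CPM at 72 h (2.03 ± 0.08, adjusted p = 3.6e-21). Its partner subunit RRM1 did not reach the fold limit, with a log2 fold change of 0.41. MCM10, which helps start the replicative helicase, was at 2.57 to 3.07 CPM at 24 h and 8.91 to 12.3 CPM at 72 h (1.96 ± 0.14, adjusted p = 3.3e-14). Of 14 licensing and helicase genes 11 were called higher (median 0.68), and of 14 genes for polymerases, the clamp and its loader 6 were (median 0.57). Those medians lie on either side of the limit. At an adjusted p under 0.05 without it, 13 of 14 were higher in each class. E2F factors and G1/S cyclins were called in 6 of 7 cases (median 1.20): E2F8 rose by 1.95 ± 0.27, E2F2 by 1.38 ± 0.24 and E2F1 by 1.20 ± 0.10, with adjusted p-values of 4.3e-08, 9.0e-06 and 1.1e-12. E2F7 and E2F8 repress their targets, while E2F1 and E2F2 activate them.

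Genes that act before these steps were not called. None of 12 measured D-type cyclins, RB family members, their kinases and CDK inhibitors was called, where 6.18% of all genes were. In a set this small, no call is near that share. At an adjusted p under 0.05 with no fold limit, 4 were higher and 4 lower. CCND1 was at 210, 216 and 217 CPM at 24 h and at 205, 202, 194 and 205 CPM at 72 h, and CDKN1A, the p21 inhibitor, at 93.7 to 101 and 82.4 to 91.1 CPM. MYC was at 263, 265 and 271 CPM and at 276, 262, 271 and 270 CPM. None of 60 genes of MYC targets and ribosome biogenesis was called (median 0.03). With no fold limit, 18 of these were higher and 12 lower at an adjusted p under 0.05. Of 26 measured replication-dependent histone genes none was called higher and 2 were called lower, H2BC4 (-0.92) and H2BC21 (-0.63); most histone mRNAs of this class lack a poly(A) tail, and how the libraries captured them is not given in the sources used here.

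The promoters of the leading called members of both lists are shown, and were searched for the motifs named above and an E2F site. Each is a stretch upstream of the RefSeq start in build GRCh38.p14, without bases that GENCODE 29 places in an exon of the gene. Capitals mark the cell cycle homology region TTTGAA and the CCAAT box ATTGG, read on both strands as TTCAAA and CCAAT too. The regions are chr17:40417951-40418146 for TOP2A, chr1:197146695-197146919 for ASPM and chr1:200620752-200621001 for KIF14, all on the minus strand, and chr10:13161308-13161553 for MCM10 on the plus strand. No such sequence is printed for E2F8 or RRM2.
TOP2A: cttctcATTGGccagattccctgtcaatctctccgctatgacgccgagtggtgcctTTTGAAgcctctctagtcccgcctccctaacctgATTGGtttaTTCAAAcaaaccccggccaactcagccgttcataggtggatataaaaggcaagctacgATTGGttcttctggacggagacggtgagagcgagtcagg
ASPM: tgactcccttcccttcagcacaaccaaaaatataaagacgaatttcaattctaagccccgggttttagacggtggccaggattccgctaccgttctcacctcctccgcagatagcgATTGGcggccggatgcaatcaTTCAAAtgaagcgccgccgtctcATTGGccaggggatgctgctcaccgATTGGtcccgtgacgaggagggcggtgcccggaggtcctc
KIF14: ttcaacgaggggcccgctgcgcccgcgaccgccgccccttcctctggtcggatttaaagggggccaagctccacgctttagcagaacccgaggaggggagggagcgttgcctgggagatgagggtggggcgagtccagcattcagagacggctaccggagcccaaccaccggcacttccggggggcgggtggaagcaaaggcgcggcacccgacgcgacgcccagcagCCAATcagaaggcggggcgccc
MCM10: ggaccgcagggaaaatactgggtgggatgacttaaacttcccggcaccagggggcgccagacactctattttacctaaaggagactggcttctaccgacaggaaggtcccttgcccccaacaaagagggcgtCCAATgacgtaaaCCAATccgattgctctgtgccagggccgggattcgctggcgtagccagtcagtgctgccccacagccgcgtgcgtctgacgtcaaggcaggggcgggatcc

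TOP2A held 2 copies of the homology region and 3 CCAAT boxes in this stretch, and ASPM 1 and 3. KIF14 held 1 CCAAT box and MCM10 held 2, neither with a homology region. No printed stretch held the E2F site TTGGCGC. Over 250 bases upstream, 26 of the 56 mitosis genes called higher that had an entry held TTTGAA (46.4%), against 1 of 29 replication genes called higher (3.45%) and 13.6% of all 27305 promoters. The CCAAT box was in 39 of the 56 mitosis promoters (69.6%), 18 of the 29 replication promoters (62.1%) and 33.0% of all. The E2F site TTGGCGC was in 6 of the 29 replication promoters (20.7%), 4 of the 56 mitosis promoters (7.14%) and 2.63% of all, and 3 of 15 replication promoters of genes not called held it too. These letters are matches in a window and not binding sites.

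The largest rises among protein-coding genes with a mean of at least 1 CPM lay in the UGT2B cluster, a run of related glucuronidation genes on chromosome 4 from UGT2B17 (chr4:68537184-68568527) to UGT2B4 (chr4:69480165-69526014; GRCh38). UGT2B28 was at 5.47, 5.31 and 5.23 CPM at 24 h and at 51.3, 51.0, 49.4 and 46.1 CPM at 72 h, a 9.33-fold difference (log2 3.22 ± 0.09, adjusted p = 3.1e-27). UGT2B11 was at 79.5, 78.7 and 83.0 CPM at 24 h and at 630, 641, 629 and 636 CPM at 72 h, 7.82-fold (2.97 ± 0.03, adjusted p = 6.3e-39). Both were several times above the 24 h level in every 72 h library. ENSG00000250696, an antisense gene without a symbol in the same cluster (chr4:69182100-69216766), had a larger fitted rise on very few counts, 4 in all at 24 h (0 to 0.199 CPM) against 0.473 to 3.90 CPM at 72 h, and was chosen after its values were seen. The main androgen-clearing genes of prostate cells moved less: UGT2B15 went from 513 to 522 CPM to 1094 to 1116 CPM (1.09 ± 0.02, adjusted p = 1.7e-29), and UGT2B17 from 310 to 342 CPM to 435 to 443 CPM (0.42 ± 0.02), under the fold limit. UGT2B10 (1.51), UGT2B4 (1.68) and UGT2B7 (1.55) lay between. Of 15 UGT2 genes and pseudogenes of the cluster 10 were measured and 8 were called higher, and the other steroid-handling gene called was CYP3A5 (0.63). These paralogs are near-identical in stretches, and 3 to 6 of the 7 libraries held fractional counts for each UGT2B gene named here, so reads shared among them leave each value uncertain.

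**Figure D2:**
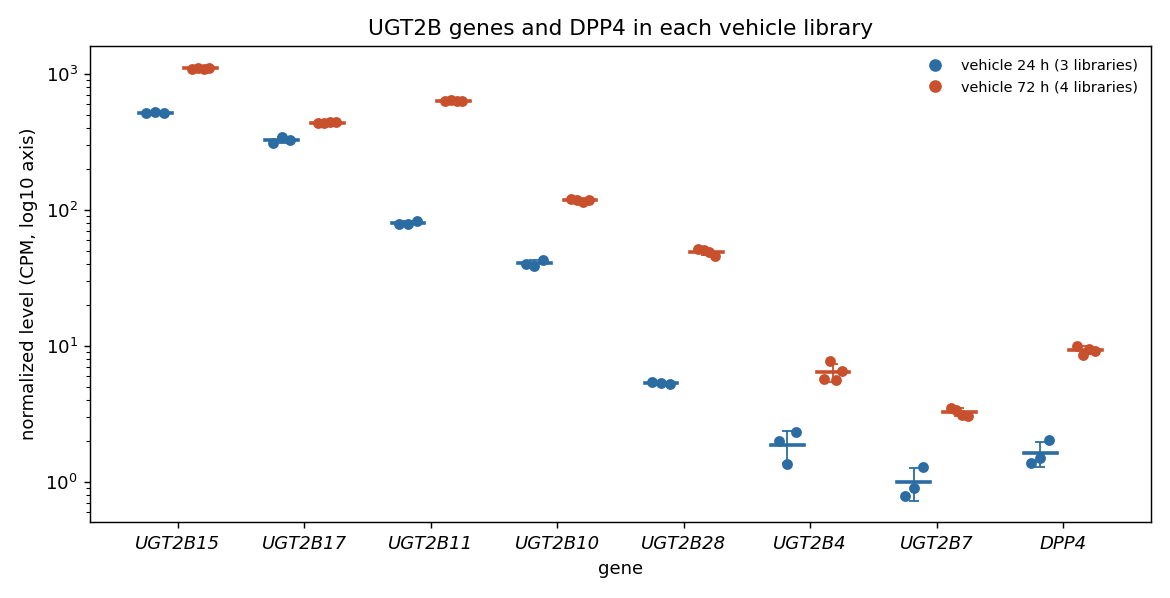
Normalized level (CPM, log10 axis) of 7 UGT2B genes and DPP4 in each vehicle library; points are libraries, horizontal bars means and error bars SD. The 72 h points lie above the 24 h points for each gene, widest apart for UGT2B28 and UGT2B11 and least for UGT2B17.

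Other genes with large rises had varied roles. DPP4, a cell surface dipeptidase, was at 1.39, 1.50 and 2.02 CPM at 24 h and at 10.1, 8.67, 9.48 and 9.26 CPM at 72 h (2.39 ± 0.17, adjusted p = 1.3e-15). NEIL3, a DNA glycosylase of replicating cells, was at 0.0994, 0.299 and 0.393 CPM at 24 h and at 2.07, 1.89, 2.48 and 2.58 CPM at 72 h (2.797 ± 0.377, adjusted p = 3.2e-09). The condensin subunit gene NCAPG and the helicase gene BLM rose by 2.11 ± 0.12 and 2.10 ± 0.24 (adjusted p = 3.0e-16 and 3.7e-09). HSPA6, an inducible heat shock gene, was at 0 to 0.242 CPM at 24 h and 0.709 to 1.80 CPM at 72 h (2.74 ± 0.50, adjusted p = 5.1e-06). None of 20 measured genes of the cytosolic heat shock list was called. With 6.18% of all genes called, that is a usual result in a list this short. Of 32 genes of the unfolded protein response 4 were called higher (12.5%, against 4.12% of all genes) and none lower. These were the chaperones of the endoplasmic reticulum HSPA5 (636 to 685 against 1060 to 1104 CPM, 0.72) and HSP90B1 (0.81), the secreted factor MANF (0.85) and the degradation factor DERL3 (1.49).

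The long non-coding gene COLCA1 rose by 2.00 ± 0.08 (adjusted p = 5.2e-22), from 7.75 to 8.53 CPM to 32.3 to 33.9 CPM. It overlaps COLCA2 on the other strand, which was called higher too (1.65 ± 0.39), and since no strand setting of the counting is given in the sources used here, reads of the pair may not be told apart. LINC01132 rose by 2.01 ± 0.40 and EXTL3-AS1 by 1.66 ± 0.37, from 0.299 to 0.398 and 0.199 to 0.514 CPM. At the other end, LINC00595 fell by 1.43 and SSTR5-AS1 fell by 1.15 on the log2 scale. CPB2-AS1 (-1.07) was not called without 24 h replicate 2 (-0.74, adjusted p = 0.051) or without 72 h replicate 1 (-0.92) or replicate 3.

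The genes that were lower at 72 h formed no single group among the lists. SLC6A19, a neutral amino acid transporter gene (chr5:1201595-1225117), was at 10.6, 11.1 and 13.1 CPM at 24 h and at 0.990, 1.26, 1.15 and 1.21 CPM at 72 h, 10.3-fold lower (-3.37 ± 0.21, adjusted p = 1.0e-18). SYT4, a vesicle calcium sensor gene, was at 31.3, 25.2 and 25.3 CPM at 24 h and at 5.58, 5.91, 7.09 and 5.56 CPM at 72 h (-2.14 ± 0.10, adjusted p = 4.3e-19). FAXDC2, a fatty acid hydroxylase domain gene, went from 23.4 to 28.4 CPM to 6.39 to 7.80 CPM (-1.88 ± 0.09, adjusted p = 6.0e-18). For each of these the groups did not overlap, which the rule that picked them required. DAB1, an adaptor of reelin signaling, fell by 1.74 on the log2 scale, COL12A1, a fibril-associated collagen gene, fell by 2.10, and LDLRAD4, an inhibitor of TGF-beta signaling, fell by 2.02. The dystrophin gene DMD fell by 1.85, from 1.59 to 2.02 CPM at 24 h to 0.322 to 0.630 CPM at 72 h. HS6ST3, a heparan sulfate sulfotransferase gene, fell by 1.70, from 0.876 to 1.27 CPM to 0.16 to 0.55 CPM. It had 14 counts in all at 72 h and was not called by DESeq2 (adjusted p = 0.016).

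CYP1A2, a classic target of the aryl hydrocarbon receptor, was at 1.09, 2.09 and 1.63 CPM at 24 h and at 0.180, 0.236, 0.0886 and 0.322 CPM at 72 h (-2.92 ± 0.49, adjusted p = 9.6e-08). CYP1A1, its neighbor and another such target, was at 2.68 to 3.63 CPM and 0.644 to 1.68 CPM (-1.54 ± 0.24, adjusted p = 7.4e-07). These were the 2 called of 6 measured genes of that pathway (33.3% lower, against 2.06% of all genes), and AHR itself was at 4.11 to 4.38 and 4.43 to 5.75 CPM. FAT4, an atypical cadherin gene, had 64 counts in all at 24 h and 5 at 72 h, 10.8-fold fewer after scaling (95% counting interval 4.38 to 34.3).

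Signaling genes were among those lower. IGFBP3, which binds IGF1, was at 935, 993 and 1001 CPM at 24 h and at 382, 376, 355 and 369 CPM at 72 h, 2.64-fold lower (-1.40 ± 0.02, adjusted p = 5.3e-30). IGF1 itself went from 0.449 to 0.906 CPM to 1.42 to 3.37 CPM (1.44 ± 0.27, adjusted p = 1.0e-04), and IGFBP5 rose by 1.23 ± 0.26, or by 2.29 without 24 h replicate 3. The phosphatase gene DUSP2 fell by 1.36 and SPRY4, a feedback inhibitor of growth factor signaling, fell by 1.13, while DUSP5 (1.11) and DUSP4 (0.89), further MAP kinase phosphatase genes, rose. FGFR3 fell by 1.50. GCLC, the catalytic subunit for glutathione synthesis, was at 96.6, 102 and 103 CPM and at 45.6, 42.9, 44.4 and 43.8 CPM (-1.20 ± 0.04, adjusted p = 1.6e-22). Its modifier subunit GCLM was at 28.6 to 30.6 and 27.3 to 29.4 CPM. GCLC was the only gene called of 25 measured NRF2 targets, and 1 call in 25 is near the share over all genes (6.18%).

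**Figure D3:**
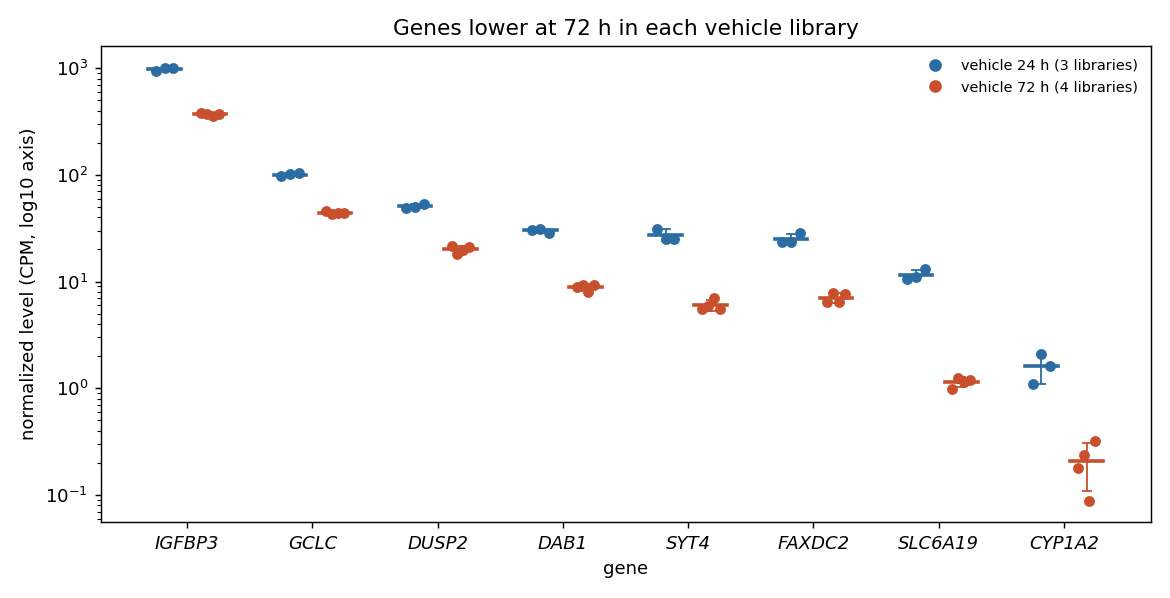
Normalized level (CPM, log10 axis) of 8 genes called lower at 72 h in each vehicle library; points are libraries, horizontal bars means and error bars SD. The groups do not overlap for any of the 8, from IGFBP3 (935 to 1001 against 355 to 382 CPM) down to CYP1A2 (1.09 to 2.09 against 0.0886 to 0.322 CPM). DAB1, SYT4, FAXDC2, SLC6A19 and CYP1A2 were picked only among genes without overlap.

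Lists of androgen-regulated genes held calls mostly on the lower side. KLK3, which encodes PSA, was at 1.19 to 1.81 and 1.26 to 1.65 CPM, KLK2 at 0.972 to 1.79 and 1.89 to 2.13 CPM (0.66 ± 0.24, adjusted p = 0.015; called without 24 h replicate 1, at 0.81). TMPRSS2 (0.03) and FKBP5 (0.26) were not called. Of 36 measured androgen-induced genes none was called higher and 5 lower (13.9%, against 2.06% of all genes), with MAF (-0.77), SGK1 (-0.96) and HERC3 (-1.02) among them. Of 34 measured androgen-repressed genes 5 were called higher (14.7%, against 4.12% of all genes), 4 UGT2B genes and DPP4, and 10 lower (29.4%), with IGFBP3, GRIN3A (-1.46) and PLA2G2A (-1.33) in front. The name of this list did not hold for all its members in these cells: in the inhibitor-treated libraries described below R1881 lowered 19 of the 34 at both times and raised 3, and GRIN3A was among those raised, with means of 4.48 CPM in vehicle and 61.9 CPM with R1881 at 24 h, scaled in separate fits. DPP4 and UGT2B28 were neither raised nor lowered at both times. Of the 36 androgen-induced genes R1881 raised 33. The Mediator kinase module held 7 genes, none called, where 6.18% of all genes were. All missed the fold limit, but at an adjusted p under 0.05 without it 3 were higher and 4 lower. CDK8 was at 49.0 to 54.9 and 43.1 to 49.3 CPM (-0.17, adjusted p = 0.0033). CDK19 was at -0.17 (adjusted p = 1.6e-07) and CCNC at 0.22 (adjusted p = 1.8e-05). The others were MED12 (-0.13), MED13 (0.08), MED13L (0.10) and MED12L (-0.52). MED12L was called without 24 h replicate 3 (-0.65) and without 72 h replicate 2 (-0.66).

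**Figure D4:**
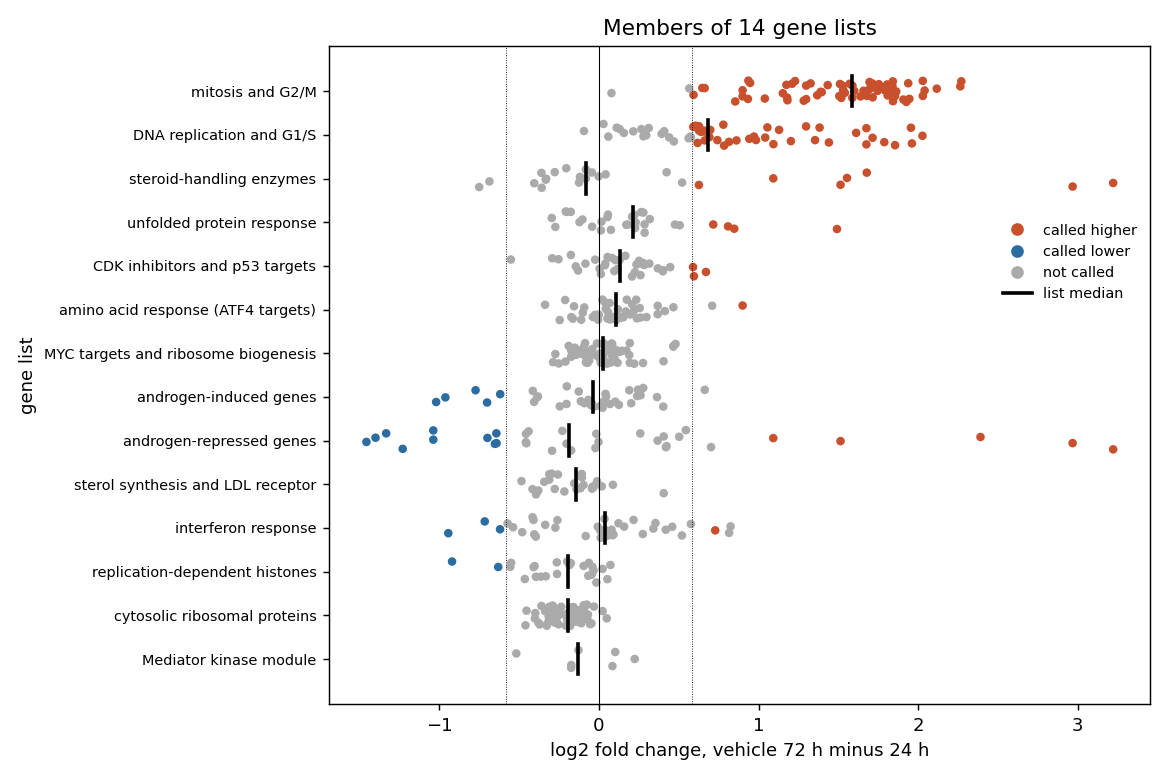
Log2 fold change (72 h minus 24 h) of each measured member of 14 gene lists; points are genes colored by call, thick bars list medians and dotted lines the 1.5-fold limit. Nearly all mitosis members lie right of the limit (median 1.59), ribosomal protein genes cluster just left of 0 (median -0.20) and the androgen-repressed list has members far out on both sides.

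Most metabolic and stress lists held few calls. Over all genes 6.18% were called, 4.12% higher and 2.06% lower, so few calls are the usual result in short lists. None was called of 25 measured genes of sterol synthesis and LDL uptake, 25 of fatty acid synthesis and desaturation, 23 of the hypoxia response, 19 glycolysis enzymes, 45 of lysosome and autophagy and 10 of iron handling. The looser rule was an adjusted p under 0.05 with no fold limit, which 23.7% of all genes passed as lower and 23.4% as higher. By it sterol genes were lower in 15 cases and higher in 1 (median -0.14). Glycolysis enzymes were so in 13 and 4 (median -0.15), and lysosome and autophagy genes in 25 and 3 (median -0.15). Of 44 measured ATF4 targets of the amino acid response 1 was called, the transporter gene SLC7A5 (5.01 to 6.16 and 8.64 to 11.9 CPM, 0.90 ± 0.11, adjusted p = 3.8e-08). Of 35 measured CDK inhibitors and p53 targets 3 were called higher, GDF15 (0.67), DDB2 (0.59) and FAS (0.59), and the calls of DDB2 and FAS were lost without 24 h replicate 3 (0.50 and 0.52), among other libraries. Of 36 measured interferon response genes 1 was called higher (2.78%) and 3 lower (8.33%), with IFI35 (-0.94) lowest.

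The androgen response was also read from libraries that this comparison does not use, R1881 with inhibitor against inhibitor alone, at 24 h (0.1 nM R1881, 1 μM Senexin B) and 72 h (1 nM R1881, 500 nM SNX631), doses as the labels give them. The study's text gives a higher Senexin B dose than the labels do, and which was used was not settled here. At both times R1881 raised 1204 genes (7.97% of 15114) and lowered 1075 (7.11%). Of the raised genes 1099 were among the 15768 tested in the vehicle libraries. Of these, 241 were called higher at 72 h and 45 lower (median 0.08), so that raised genes made up 37.1% of those called higher. The raised genes included 115 of the 124 cell cycle list members, and without these 139 of 984 were called higher and 45 lower (median 0.04). Of 1073 measured genes that R1881 lowered, 76 were called higher and 67 lower (median 0.01). As shares, 21.9% of the raised genes were called higher and 4.09% lower, 14.1% and 4.57% of those outside the cell cycle lists, and 7.08% and 6.24% of the lowered genes. Over all genes the shares were 4.12% higher and 2.06% lower, so each of these classes lay above them in both directions.

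The same contrast of 72 h with 24 h was made in the other 3 arms, which share no library with the vehicle comparison. There too the 24 h and 72 h libraries came from different experiments, so time and experiment cannot be told apart in any arm, nor where arms agree. Agent or dose differed as well: Senexin B against SNX631 for the inhibitor alone, 0.1 against 1 nM for R1881, and both changes for the combination. In the inhibitor arm 5.46% of genes were called higher and 3.10% lower, in the R1881 arm 2.60% and 1.38%, and in the combination arm 3.19% and 2.16%. Of the genes called higher in vehicle and tested in the arm, 484 of 627 were called higher with inhibitor (77.2%, and 58.8% of that arm's own), 196 of 588 with R1881 (33.3% and 56.98%) and 274 of 586 with both (46.8% and 64.8%). Of those called lower, 214 of 313 (68.4% and 45.3%), 83 of 281 (29.5% and 42.6%) and 105 of 281 (37.4% and 33.7%) were called lower. Opposite calls numbered 0, 5 and 9. Called the same way in all 4 arms were 145 higher and 55 lower genes.

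The cell cycle lists differed between arms. The mitosis list had medians of 1.59 in vehicle, 2.16 with inhibitor, 0.68 with R1881 and 1.09 with both, and the replication list 0.68, 1.20, 0.02 and 0.29. The difference between the vehicle and R1881 arms was tested in a fit of those 14 libraries, chosen after the data were seen: 1.40% of genes rose more, or fell less, in vehicle and 0.575% the reverse. Called for a larger log2 rise in vehicle were 50 of 68 mitosis and 35 of 56 replication list genes. None was called for a smaller one. These are ratios from unlike starting levels. With all groups scaled together, the mitosis sum had means of 542 and 1233 CPM in vehicle at 24 and 72 h. With R1881 the means were 2047 and 3197 CPM, so vehicle at 72 h stayed below R1881 at 24 h. The same held for MCM10 (10.1 against 35.6 CPM) and RRM2 (33.2 against 129 CPM). For MCM10 the log2 fold change was 1.96 in vehicle and 0.06 with R1881, a difference of 1.91 (adjusted p = 2.5e-12). For RRM2 it was 2.03 and 0.24, a difference of 1.80 (adjusted p = 8.6e-16). CCNB1 (0.85 and 0.61) and FOXM1 (1.04 and 0.72) were not called for a difference.

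UGT2B11 rose in all 4 arms, by 2.97, 3.26, 3.86 and 3.39 in the order above, and UGT2B28 by 3.22, 3.21, 3.94 and 3.45; both rose less in vehicle than with R1881, by 0.88 and 0.71 (adjusted p = 3.0e-13 and 3.7e-04). IGFBP3 fell in all 4 (-1.40, -1.38, -0.99 and -1.15), as did SYT4 (-2.14, -1.54, -1.59 and -1.28). Both fell more in vehicle than with R1881, with differences of -0.40 and -0.53 (adjusted p = 6.8e-08 and 0.0059). These were not called because they missed the fold limit. By contrast GCLC was -1.20 and -1.38 without R1881 and -0.15 and -0.19 with it, DAB1 -1.74 and -2.01 against -0.21 and -0.22, and FAXDC2 -1.88 and -2.49 against -0.42 and -0.84. The test of vehicle against R1881 called all 3 of these genes, with differences of -1.03, -1.52 and -1.44 (adjusted p = 1.6e-13, 3.7e-09 and 1.1e-10).

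**Figure D5:**
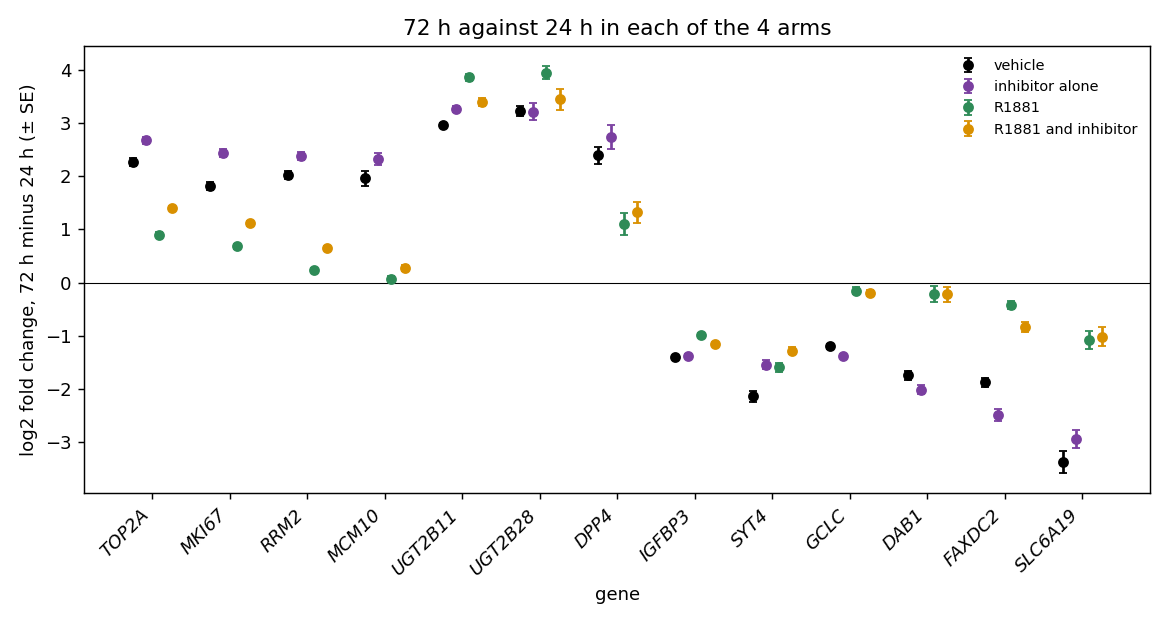
Log2 fold change of 72 h against 24 h (± SE of the fit) for 13 genes in the vehicle, inhibitor, R1881 and combination arms. The cell cycle genes and GCLC, DAB1, FAXDC2 and SLC6A19 lie nearer 0 in the R1881 arms, while UGT2B11, UGT2B28, IGFBP3 and SYT4 are on the same side of 0 in all 4.

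Small shifts ran through large classes of genes. Cytosolic ribosomal protein genes were lower in 66 of 70 cases at an adjusted p under 0.05, none past the fold limit, with a median of -0.20 and a summed level of 82309 to 87722 CPM at 24 h and 72838 to 74448 CPM at 72 h. Processed pseudogenes moved the other way: 70 of 240 were called higher and 4 lower (median 0.37), among them RPL7P1 (1.44) and HNRNPA1P10 (1.44), and their share of counts was 0.181% to 0.186% at 24 h and 0.227% to 0.241% at 72 h. Reads of a processed pseudogene and its parent can be confused, so these calls are uncertain. Among protein-coding genes the median log2 fold change went from 0.12 in the fifth with lowest GC content to -0.13 in the fifth with highest; its part in the results was not tested beyond the offset described in the closing section. RN7SL1, the RNA of the signal recognition particle, fell by 1.21 with widely spread 24 h values of 8.65, 16.8 and 6.38 CPM; the change was -0.75 without 24 h replicate 2, and it was not called by DESeq2 (adjusted p = 0.017) or in the fit of all 28 libraries (adjusted p = 0.012). RN7SL2, a further copy, was at 12.4, 21.9 and 8.82 CPM at 24 h (-0.71) and was not called without 24 h replicate 2 (-0.30) or without 72 h replicate 3 (-0.62) or replicate 4 (-0.58).

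The libraries were checked against markers of their own and of other cell types. Of 18 luminal identity genes 17 were measured, with a summed level of 8026 to 8114 CPM at 24 h and 6977 to 7023 CPM at 72 h. The basal markers KRT5, KRT14, KRT15 and TP63 had no counts, nor did CD44, a marker of other prostate lines, and of 8 leukocyte markers 6 never passed 3 counts. Of 9 fibroblast and smooth muscle markers DCN and FAP had no counts and the sum was 30.4 to 33.5 CPM at 24 h and 37.2 to 41.3 CPM at 72 h, with ACTA2 called (0.98 ± 0.29, adjusted p = 0.0026; 0.025 without 24 h replicate 3). Their part in the results was not tested.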

How the data were processed

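RNA was sequenced from 28 LNCaP cultures, 7 of them analysed here, with a directional library kit. The authors deposited 1 table of expected counts for 61815 genes. The submitters' processing notes name FastQC, cutadapt 2.8, STAR 2.7.2b, featureCounts of Subread 2.0.3, and the builds GRCh38.p13 and GRCm39. Of values above 0, 16.9% were fractions, so that multi-mapping or overlapping reads had been divided; values were rounded. Mitochondrial genes were not analysed here.

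Libraries were grouped by title. Genes passing filterByExpr (minimum count 10, total 15) were scaled by TMM and tested with edgeR 4.0.16 (quasi-likelihood test, R 4.3.3), with Benjamini-Hochberg adjustment over all genes tested. Levels are CPM after TMM, means are with SD, and log2 fold changes with the SE of the fit. The same fit was made within each other arm. Each pair of libraries of a group differed by more than counting noise (chi-square per degree of freedom 1.22 to 1.63), so each counted as 1 sample. Same-numbered libraries of the 2 groups did not deviate together (r = 0.03, 0.09 and -0.02). Counting intervals are exact and cover counting error only. Depth of 10219140 to 33809419 counts puts 3 counts at 0.0906 to 0.298 CPM. Gene types, positions, GC content and length came from GENCODE 29 for 97.4% of genes tested, and promoters from RefSeq.

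The members and gene lists were chosen with earlier results of these data known. Genes named were the Mediator kinase module and fixed androgen and cell cycle genes, the 10 highest and 10 lowest called protein-coding genes with a mean of at least 1 CPM and groups that do not overlap, 3 long non-coding genes each way, and up to 3 members each way per list; other named genes and the functional classes within lists were chosen after values were seen. Alternatives were DESeq2 1.42.0 and its size factors, library totals, other filters and limits, all 28 libraries, a replicate block, thinning, an offset for GC content and length, and leaving out each library. A few items named by that rule are not reported here. The procedure was tested on simulated data.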

Additional observations from a re-analysis of the deposited data

Results flagged for a closer look

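Among 96 values tested for a lone library in the 4 at 72 h, 3 had one; chance alone marks about 1 in 20. E2F8 was highest in replicate 2 (gap over range 0.894), MED13 was highest in replicate 4 (0.952) and GRIN3A was lowest in replicate 3 (0.890).

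The change from 24 h to 72 h differed between the vehicle and R1881 arms in edgeR's test of the difference for 28 genes named by rule. R1881 was 0.1 nM at 24 h and 1 nM at 72 h, so dose is part of each difference. The log2 change was larger in vehicle for NEIL3 (by 2.42), BLM (1.77), NCAPG (1.69), TOP2A (1.37), DPP4 (1.30), ASPM (1.24), MKI67 (1.14), KIF14 (1.09), MCM10 (1.91), RRM2 (1.80), E2F8 (1.64) and DERL3 (1.71). The same held for EXTL3-AS1 (2.99) and ACTA2 (2.19), which had too few counts to be tested within the R1881 arm. It was lower in vehicle for SLC6A19 (-2.28), LDLRAD4 (-1.69), DAB1 (-1.52), FAXDC2 (-1.44), GCLC (-1.03) and HERC3 (-0.68), which had a negative change in both arms, and for SGK1 (-1.32), KLF4 (-1.13), MAF (-0.82) and HERC6 (-0.69), which fell in vehicle and had values from 0.06 to 0.37 with R1881. The UGT2B genes UGT2B11 (-0.88), UGT2B28 (-0.71), UGT2B10 (-0.68) and UGT2B17 (-0.61) rose less in vehicle.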

How the results depend on the processing

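The 974 calls (649 higher, 325 lower) stayed within 1.5 times under DESeq2 size factors, library totals, DESeq2's Wald test (712), no filter beyond 1 count (1084), all 28 libraries, thinning (879), without the 10 most abundant genes, an offset for GC content and length (909) and, added after the data were seen, without pseudogenes (868). They were 613 (426 higher, 187 lower) with at least 50 counts in 3 libraries, where fewer genes were tested, 370 (273 and 97) in a test against a fold of 1.5, and 7431 (3696 and 3735) at an adjusted p under 0.05 with no fold limit. Leaving out 1 library gave 848 to 980 calls, 577 to 650 higher and 271 to 330 lower. With the replicate block, calls were 940 (637 higher, 303 lower), and the vehicle calls found in the other arms were 686, 249 and 381 against 698, 279 and 379; the numbers did not pair the libraries. Of 77 named genes that were called, 56 kept call and direction under every one of the 18 alternatives in which it was tested. Signs turned for genes near 0: MYC with no filter (-0.0069), MED13 with the offset (-0.0088), and TMPRSS2 and KLK3 without 24 h replicate 3 (their ranges over left-out libraries were -0.0104 to 0.0633 and -0.216 to 0.0858). The median of androgen-induced genes turned to 0.0082 under library totals, which moved the median of all genes to 0.05. Of 117 list medians compared, 9 changed sign, all within 0.06 of 0: 7 under library totals, that one and those of the hypoxia (0.032) and IGF axis (0.012) lists among them, and 2 with the offset, of the MYC target (-0.0054) and metallothionein (-0.055) lists. The cause of these changes was not tested. Genes under about 1 CPM rest on few counts.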
